A study of Mus musculus with 2 samples.

Results

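The Kruppel-like factors described here are 9 mouse transcription factor genes, Klf2, Klf3, Klf4, Klf6, Klf7, Klf9, Klf10, Klf12 and Klf13, measured in T cell blasts. Members were taken by name, as every probe set of the value table annotated to 1 of these symbols alone, which gave 35 of 45037 probe sets and 9 of 18193 named genes. The cells were 5cc7 T cells of the mouse, whose antigen receptor sees a moth cytochrome c peptide (MCC). They were blasts, the enlarged dividing form of activated lymphocytes, and RNA was taken 5 days after they met MCC peptide in culture. The labels give no strain, age or sex and no treatment beyond the peptide. Polyadenylated RNA was hybridised to 2 Affymetrix mouse 430 2.0 arrays, called set 1 and set 2, which form 1 group. No resting, unstimulated or earlier sample was compared, so the data give levels and not a change with activation. Nothing in the labels ties the arrays to separate cultures, and the spread between them may be technical.

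Kruppel-like factors bind CACCC and GC-rich boxes in DNA through C-terminal zinc fingers, and their divergent N-terminal parts recruit different cofactors. Klf2, Klf4, Klf6 and Klf7 are generally counted as activators. Klf3 and Klf12 recruit the CtBP corepressors, and Klf9, Klf10 and Klf13 the Sin3 corepressors. In T cells Klf2 maintains quiescence and the expression of receptors for recirculation, and it is known to fall when the antigen receptor is engaged.

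Values are intensities on the linear scale of the deposited table, as mean ± SD of the 2 arrays (n = 2). A probe set counted as above background if its reading on each array exceeded the 95th percentile of probe sets for genes of liver, eye, pancreas and kidney, which was 53.4 on set 1 and 55.9 on set 2. A gene was called when at least 1 of its probe sets was. Of 42 genes of other organs, kept apart to check this bound, 8 (19.0%) were also called, so a call close to the bound is weak. The medians of all probe sets were 36.4 and 37.9. All 9 measured T cell markers, among them the CD3 chain genes Cd3d, Cd3e and Cd3g, were above background. Because probes differ in how well they bind, readings of different genes are not compared as amounts of RNA. In the lists of linked genes the order of means only served to choose which genes to name. In RNA of whole cultures, fewer cells expressing a gene and less RNA per cell cannot be told apart.

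For 8 of the 9 members RefSeq (GRCm38.p6) gave a stretch of 250 bases that ends just before a listed transcription start, and 3 are shown. For Klf7 and Klf12 the listed start lies inside the annotated gene span, so their stretches are not upstream of the whole gene. Klf2 is shown because it holds a match to the motif of the MEF2 factors, which are known to drive this gene. Klf3 is shown because it has the most CACCC boxes of the 8. Klf9 is shown as a gene that was not above background and has such a box too. Capitals mark CACCC or its complement GGGTG and, in Klf2, the longer MEF2 match.
Klf2 (chr8:72318812-72319061, plus strand): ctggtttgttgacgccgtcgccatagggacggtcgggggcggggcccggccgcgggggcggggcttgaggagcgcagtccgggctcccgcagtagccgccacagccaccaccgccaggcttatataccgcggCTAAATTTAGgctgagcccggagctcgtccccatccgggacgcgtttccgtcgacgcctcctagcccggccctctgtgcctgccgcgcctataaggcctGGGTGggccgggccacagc
Klf3 (chr5:64803271-64803520, plus strand): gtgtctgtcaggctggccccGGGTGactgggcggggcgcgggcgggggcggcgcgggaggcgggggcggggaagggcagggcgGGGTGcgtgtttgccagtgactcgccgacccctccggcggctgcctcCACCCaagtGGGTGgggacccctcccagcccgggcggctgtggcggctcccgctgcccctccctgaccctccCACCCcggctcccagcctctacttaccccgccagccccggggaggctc
Klf9 (chr19:23140976-23141225, plus strand): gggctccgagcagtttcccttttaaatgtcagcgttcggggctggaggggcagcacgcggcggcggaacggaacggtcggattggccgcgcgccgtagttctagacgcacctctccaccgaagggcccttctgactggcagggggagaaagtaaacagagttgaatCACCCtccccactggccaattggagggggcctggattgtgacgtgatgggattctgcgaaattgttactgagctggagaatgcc
The MEF2 match of Klf2 lies from 118 to 109 bases before the start. Of 32851 RefSeq promoters of this length, 959 (2.92%) held the MEF2 motif, and of the 8 member promoters 1 did. CACCC on either strand was found in 6 of 8 member promoters, with 5 matches in Klf3, 3 in Klf7 and 1 each in Klf2, Klf9, Klf12 and Klf13, against 52.0% of all promoters. The GC box GGGCGG or its complement CCGCCC was found in 6 of 8, all but Klf9 and Klf12, against 32.7% of all promoters. These matches describe letters and not bound sites, and those of Klf7 and Klf12 belong to starts inside the gene. Members above background and members not above background both held CACCC.

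Transcripts of 6 of the 9 factors were above background: Klf2, Klf3, Klf6, Klf7, Klf10 and Klf13. Klf4, Klf9 and Klf12 were not, on any of their 14 probe sets. Among all named genes 47.4% were called. Genes with more probe sets are called more often, and over genes with the same numbers of probe sets as the 9 members the mean share called was 66.7%. The share of the members is the same 66.7%, so the family was not called more often than genes of like coverage. Of the 35 member probe sets 17 were above background (48.6%), against 38.1% of all probe sets. The called member probe sets spanned 61.6 to 667.3.

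**Figure D1:**
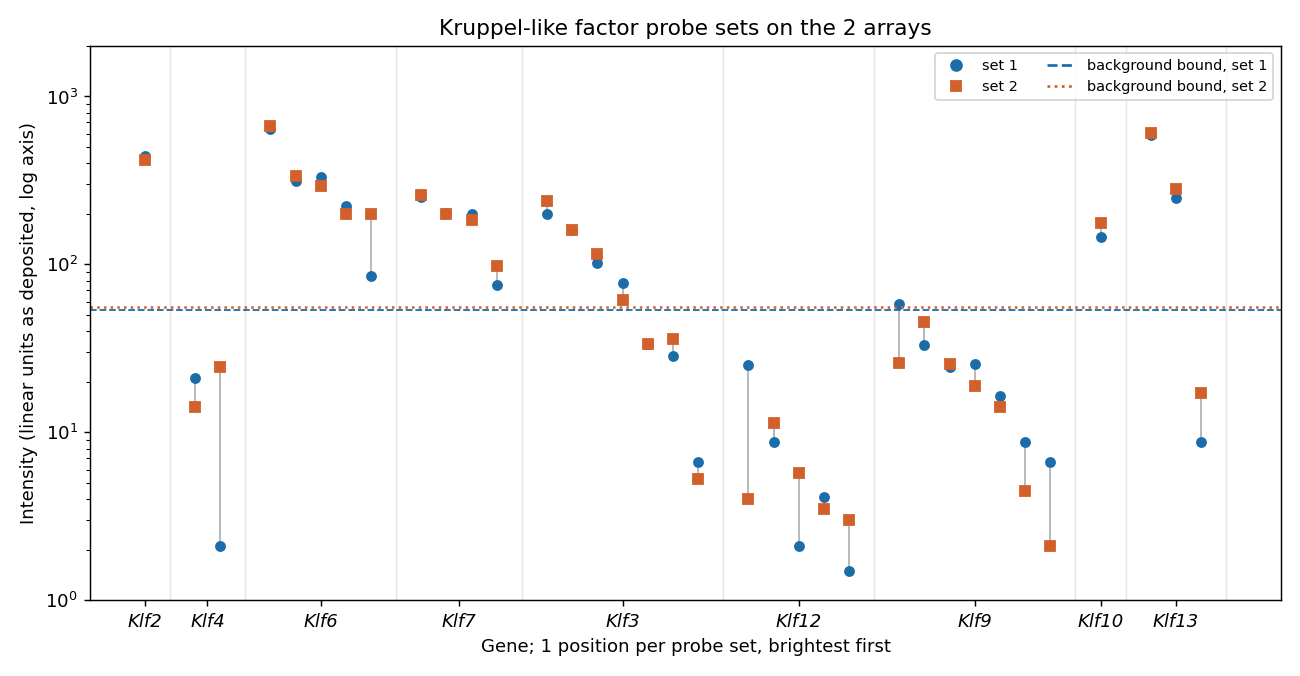
Intensity (log axis) of all 35 Kruppel-like factor probe sets on set 1 (circles) and set 2 (squares), grouped by gene, with a grey line joining both arrays and horizontal lines at the background bounds of 53.4 and 55.9. Every probe set of Klf6 and Klf7 lies above the bounds on both arrays, whereas Klf4, Klf9 and Klf12 have none that does.

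Of the 4 activators, 3 were above background, with 10 of their 12 probe sets. Klf2, the quiescence and recirculation factor, has 1 probe set, which read 442.7 on set 1 and 418.2 on set 2 (430.4 ± 17.3). Both arrays were far above the bound. With a single probe set no second measurement of Klf2 was to be had.

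Klf6, an early response gene of many cell types, was above background on all 5 of its probe sets. The brightest, 1433508_at, read 641.0 and 667.3 (654 ± 18.6). The probe sets 1427742_a_at and 1418280_at followed at 325 ± 15.1 and 312 ± 24.7. They gave similar levels, under that of the brightest on both arrays. Probe set 1447448_s_at read 222.4 and 198.5. Probe set 1459718_x_at, annotated to the same expressed sequence tag, read 85.7 and 199.5. The last is the one Klf6 probe set on which the arrays disagreed, and on set 2 it matched its partner. The _s and _x endings mark probe sets whose probes may also bind transcripts of other genes. All 5 probe sets were above background in 16.4% of the 463 genes that have 5.

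Klf7 was above background on all 4 probe sets, as were 17.1% of the 1093 genes with 4. The brightest, 1449439_at, read 253.6 and 260.1 (257 ± 4.60). The others were 1419354_at at 201 ± 2.12, 1419356_at at 192 ± 11.5 and 1419355_at at 87.0 ± 16.3. The order of the 4 was the same on both arrays.

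Klf4, which restrains division of lymphocytes and helps to reprogram cells to pluripotency, was not above background. Probe set 1417394_at read 21.1 and 14.1. Probe set 1417395_at read 2.1 and 24.4. All 4 readings lay under the bounds, and 44.7% of genes with 2 probe sets had none above.

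Of the CtBP-recruiting repressors, Klf3 was above background and Klf12 was not. Klf3, a widely expressed repressor, had 4 of 7 probe sets above the bound. Probe set 1431630_a_at read 199.3 and 239.5 (219 ± 28.4). Probe set 1454666_at read 160.0 and 160.3. Both exceeded the bounds on both arrays. Lower readings came from 1441200_at (101.3 and 115.8) and 1429360_at (77.0 and 61.6). The remaining 3 were under the bound, with 1421604_a_at at 33.8 ± 0.0707, 1442920_at at 32.1 ± 5.44 and 1458487_at at 6.7 and 5.3. The call of Klf3 thus rests on part of its probe sets. Its weakest called probe set, 1429360_at, is close to the bound.

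Klf12, first described as a repressor of the gene for transcription factor AP-2 alpha, was not above background on any of 5 probe sets. Its highest reading was 25.3, on set 1 for 1439846_at, which read 4.0 on set 2. Means of the 5 ran from 2.25 ± 1.06 to 14.7 ± 15.1. No probe set above background was found for 21.8% of genes with 5.

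Of the Sin3-recruiting repressors, Klf10 and Klf13 were above background and Klf9 was not. Klf13, also known as RFLAT-1 and a driver of the chemokine gene Ccl5 late in T cell activation, read 591.9 and 605.4 on 1432543_a_at (599 ± 9.55). A second probe set, 1436316_at, read 247.7 and 282.1 (265 ± 24.3). The third, 1456030_at, was under the bound at 8.7 and 17.1. The 3 probe sets of Klf13 therefore differ in their calls, and the call of the gene rests on 2 of them. Klf10, an early gene of the TGF-beta response, read 145.2 and 176.7 on its only probe set (161 ± 22.3). It was above the bound on both arrays.

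Klf9, a gene induced by glucocorticoid and thyroid hormones, had none of 7 probe sets above background on both arrays. Probe set 1436952_at read 58.3 on set 1, above the bound there, and 26.0 on set 2. It was the only one of the 35 to exceed the bound on a single array. Next came 1428288_at at 33.2 and 45.1, and the dimmest was 1422264_s_at at 4.40 ± 3.25. None above background was the outcome for 8.25% of the 97 genes with 7 probe sets.

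How far probe sets of 1 gene diverge was expressed as the brightest over the dimmest mean, with the dimmest taken no lower than 54.6, the mean of both bounds. The ratio was 4.59 for Klf6 and 2.95 for Klf7, near the medians of 5.05 and 3.63 for called genes with as many probe sets. For Klf3 it was at least 4.02 (median 6.96). For Klf13 it was at least 11.0, where called genes with 3 probe sets had a median of 3.0 and 90.8% had a smaller ratio. Of these 4 genes, Klf13 had the widest disagreement relative to genes with as many probe sets.

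**Figure D2:**
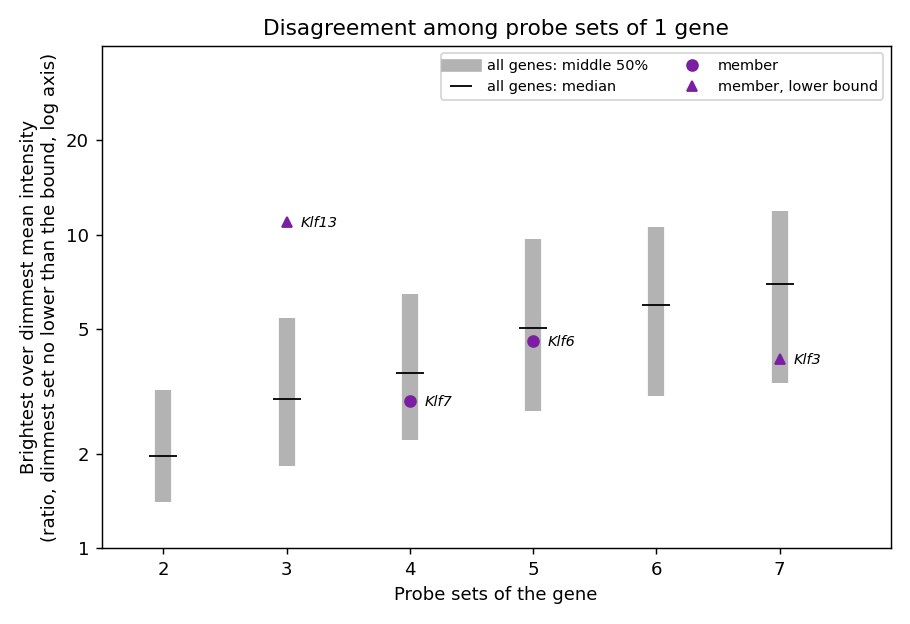
Ratio (log axis) of the brightest to the dimmest mean intensity among probe sets of a gene, against the number of probe sets. Grey bars span the middle 50% of called genes and the black line is their median; circles are Klf6 and Klf7, near the medians, and triangles mark Klf3 and Klf13, whose dimmest probe set was under the bound, so that 4.02 and 11.0 are lower limits.

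The arrays gave nearly the same levels for the called members. Differences are log2 of set 2 over set 1, less their median over all called probe sets (0.03). Over the 17 member probe sets the median size of the difference was 0.16, and 10 were higher on set 2 and 7 lower. Over all called probe sets it was 0.13. Of the 17, 1 (5.88%) differed by more than 1.5-fold, against 2.83% of all called probe sets, and a count of 1 is too small to set apart from that share. This was 1459718_x_at of Klf6, at 1.19 or 2.29-fold higher on set 2, a larger difference than that of 99.9% of called probe sets. The other 4 Klf6 probe sets lay between -0.19 and 0.07. The remaining 16 member probe sets lay between -0.35 (1429360_at of Klf3) and 0.36 (1419355_at of Klf7).

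**Figure D3:**
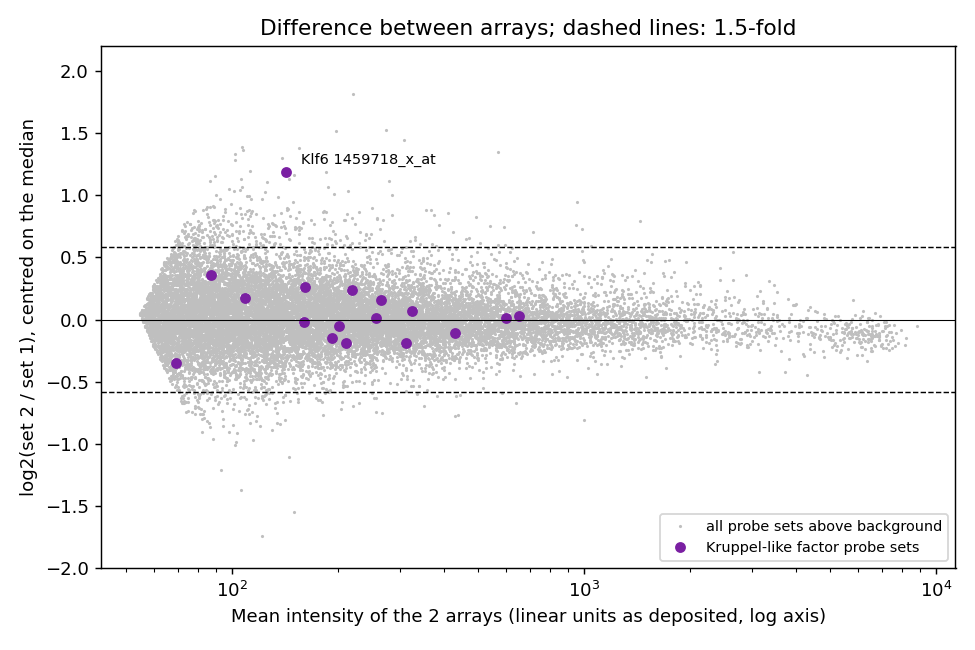
Log2 ratio of set 2 to set 1, centred on the median, against mean intensity (log axis) for all called probe sets (grey) and for the 17 called Kruppel-like factor probe sets (purple), with dashed lines at 1.5-fold. The members lie between the dashed lines except 1459718_x_at of Klf6 at 1.19.

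Of the 8 other family members listed, 7 were measured and 2 were above background, both with 1 probe set and both near the bound. Klf11, a relative of Klf10, was at 80.5 ± 13.2, and Klf16 at 92.3 ± 7.28. Klf1, the red cell factor, was not above background at 23.1 ± 13.8, nor was Klf14 at 22.9 ± 23.2. Klf5, chosen after its values were seen, exceeded the bound on set 2 alone, at 33.7 and 75.1 on its brightest probe set. The Sp factors, which share the zinc finger type and bind GC boxes, were above background in 4 of 7 measured cases. Sp1 was at 725 ± 28.2 (2 of 3 probe sets above background), Sp3 at 395 ± 12.2 (its only probe set) and Sp4 at 173 ± 0.354 (1 of 2). Sp6, chosen after its values were seen, was near the bound at 66.9 ± 1.27 (1 of 4). Sp5 and Sp7 were not above background.

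The cofactors through which these proteins act were above background in 11 of 12 cases. Rbbp4, Rbbp7 and Hdac1, parts of the Sin3 histone deacetylase complex, were at 1536 ± 186, 1257 ± 56.0 and 783 ± 27.6. Sin3a and Sin3b, its scaffolds, were at 205 ± 2.55 and 769.8 ± 6.29. Of the corepressors of Klf3 and Klf12, Ctbp1 was at 777 ± 27.6 and Ctbp2 was not above background at 40.7 ± 2.76. Sin3a, Sin3b and Ctbp1 were chosen after their values were seen.

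Genes that control Klf2 were above background in 9 of 10 cases. They included Mef2d, of the factor family whose motif the Klf2 promoter holds, at 651 ± 57.8, and Foxo1, a direct activator of Klf2 in T cells, at 501 ± 33.9. Foxo3 was at 373 ± 0.354. Mapk7, the ERK5 kinase that acts on MEF2 factors, was not above background at 39.1 ± 8.20, while Map2k5, the kinase that activates it, was at 237 ± 56.0 (chosen after its value was seen). Wwp1, a ubiquitin ligase that degrades the Klf2 protein and was chosen in the same way, was at 172 ± 15.3.

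All 5 measured trafficking genes linked to Klf2 were above background. The lymph node homing receptor Ccr7 was at 1869 ± 42.1, the gut homing integrin gene Itgb7 at 1594 ± 161 and the chemokine receptor gene Cxcr3 at 1125 ± 64.4. S1pr1, the receptor for exit from lymph nodes and a direct Klf2 target, read 521.9 and 461.5 (492 ± 42.7), and was chosen after its values were seen. Of the cell cycle genes linked to Klf2 and Klf4, 4 of 6 were above background. These included the cyclin gene Ccnd2 at 1724 ± 48.8, Myc at 614 ± 1.70 and the inhibitor gene Cdkn1b, which read 344.5 and 520.6. Ccnd1 and Cdkn1c were not, at 49.2 ± 4.67 and 2.70 ± 0.

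Of the TGF-beta pathway genes listed beside Klf10, 8 of 9 were above background. The receptor gene Tgfbr2 was at 1072 ± 84.7, the signal carrier Smad4 at 878 ± 93.1 and the ligand gene Tgfb1 at 470.2 ± 27.4, while Foxp3, the regulatory T cell factor, was not above background at 15.8 ± 4.03. The Klf13 target Ccl5 was at 213 ± 4.31. Nlk and Prpf4b, kinases that act with Klf13 on Ccl5, were at 581 ± 33.9 and 401 ± 26.2. Counts over these short lists carry no test, and 47.4% of all named genes were called. That share is not matched to the number of probe sets, and many of the listed genes have several. It was 32.1% for genes with 1 probe set, 55.3% with 2, 67.4% with 3 and 73.6% with 4. No matched share was worked out for the lists, so their counts are not read as an excess.

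**Figure D4:**
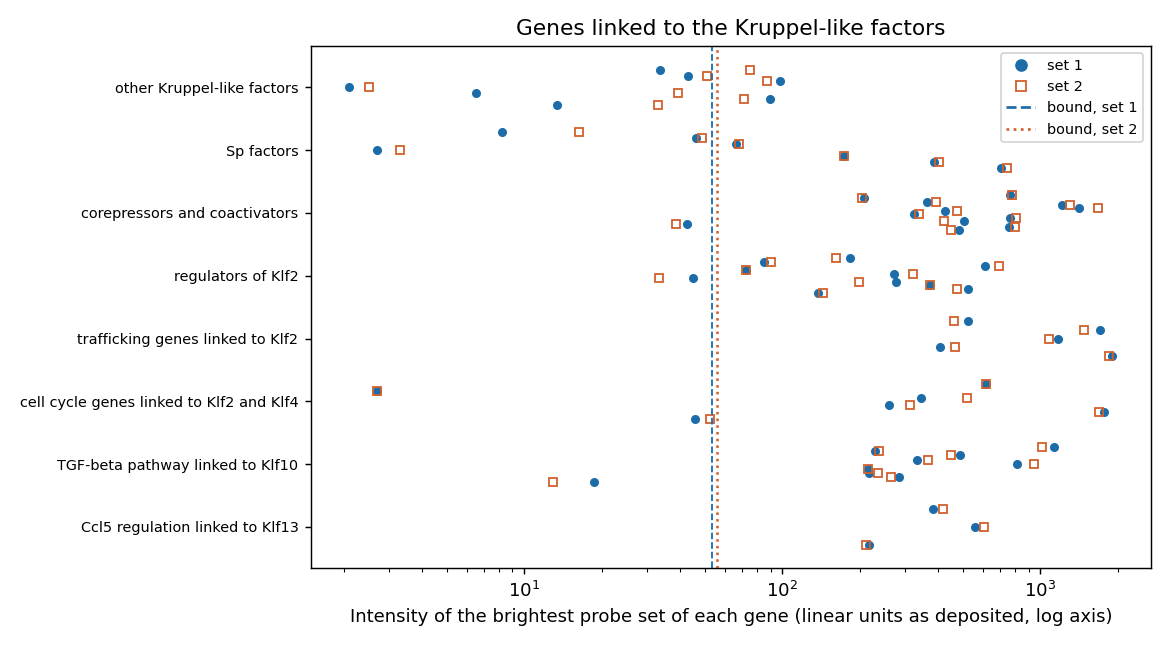
Intensity (log axis) of the brightest probe set of each measured gene in 8 lists linked to the Kruppel-like factors, on set 1 (circles) and set 2 (open squares), with vertical lines at the bounds of 53.4 and 55.9. All 5 trafficking genes and all 3 genes of Ccl5 regulation lie above the bounds, while 5 of the 7 other Kruppel-like factors do not on both arrays.

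Klf2, Klf4 and Klf6 are also known from endothelium, macrophages and other cells, so markers of those types were read beside them, and every marker above background is named. Of 8 endothelial markers 2 were above background, Pecam1 at 326 ± 36.8, which T cells also express, and Kdr at 67.0 ± 0.0707, while Cdh5, Cldn5, Egfl7, Tek, Tie1 and Vwf were not. Of these Egfl7 exceeded the bound on set 1 alone, at 67.0 and 50.2. The summed level of that list was 525 on set 1 and 471 on set 2. Such sums include readings under the bound and can rest mostly on 1 gene, so they do not measure how much of a cell type is present. Of 10 macrophage and dendritic cell markers 1 was above background, Csf1r at 57.3 and 146.7, and the list summed to 311 and 501. Adgre1 and Lyz2 exceeded the bound on set 2 alone, at 76.6 and 63.8. B cell markers were above background in 4 of 7 cases, with Ms4a1 at 377 ± 17.4, Cd79b at 165 ± 1.20, Blnk at 135 ± 2.90 and Cd79a at 108 ± 14.1. The other B cell markers, Cr2, Ebf1 and Pax5, were not, and the list summed to 925 and 918. Of these Pax5 exceeded the bound on set 1 alone, at 54.0 and 53.7. Epithelial, fibroblast and erythroid markers were above background in 1 of 6, 1 of 6 and 1 of 4 cases, namely Epcam at 189.8 ± 21.1, Col1a2 at 63.3 ± 3.82 and Epor at 65.4 ± 2.55. The epithelial marker Krt8 exceeded the bound on set 1 alone, at 53.6 and 39.7. The part of such cells in the levels of the Kruppel-like factors was not tested.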

How the data were processed

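Intensity values for 2 arrays of 1 group were taken from the deposited series table, on a linear scale read from the values (0 to 8860.2). How the authors corrected background, summarised probes and scaled the arrays is not given in the sources used here, and neither is a genome build. Of 45101 probe sets, 64 manufacturer controls were left out. Platform annotation gave 1 symbol to 34945 of the rest, several to 932 and none to 9160. All 9 members matched RefSeq by gene identifier with the same symbol. The bound came from 49 probe sets of 38 measured off-tissue genes, of which 2 were themselves called.

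The members, gene lists and rules were chosen with earlier results of these data known. Every member and probe set was named, and from each linked list up to 3 called genes of highest mean and up to 2 uncalled ones in alphabetical order, plus genes marked as chosen after their values were seen. Listed genes with no probe set of 1 symbol were not analysed here. A gene was represented by its brightest probe set, and called linked genes and markers with several can have others under the bound. Intensities under 1 were set to 1 before log2. With 1 group no test between groups was possible, there are no p-values, and having few arrays limits the precision. Other bounds, each array alone, other probe set choices and quantile normalization were tried. A planned description of the zinc fingers needed protein sequences and was not run. Python 3.11.15, numpy 2.4.6, pandas 2.3.3 and matplotlib 3.10.9 were used.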

Additional observations from a re-analysis of the deposited data

How the results depend on the processing

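The count of 6 member genes above background was the same with the bound at the 90th or 99th percentile, from the second off-tissue list (82.1 and 81.9) or at each array's overall median, with quantile normalization, with the median over probe sets, and without _s_at, _x_at and _a_at probe sets. On single arrays it was 6 to 7, the additional gene being Klf9 on set 1. The count of 17 member probe sets ran from 12 (without those suffixes) to 17 under these settings and from 17 to 18 on single arrays. With the second off-tissue bound it was 15, as 1 probe set each of Klf3 and Klf7 was lost. The single member probe set more than 1.5-fold apart, 1459718_x_at, kept its direction at 1.17 to 1.22 with quantile normalization, a floor of 16 or no centring. The level of a gene depends on which probe sets are used. With the median over probe sets, Klf6 was at 312, Klf7 at 197, Klf3 at 69.3 and Klf13 at 265, moves above the SD between arrays, and the other 5 moved by less. Without the suffixed probe sets Klf3 was at 160.2 and Klf13 at 265. No level moved by over 1 SD with quantile normalization. No paired analysis was possible because there is 1 group. The number of arrays limits precision, and readings under the bound give no level.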

Other observations

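For 6 members, 1 probe set has the RefSeq messenger RNA itself as its annotated target. Klf2 and Klf10 have no other probe set. For Klf3 it was 1421604_a_at, under the bound at 33.8 ± 0.0707, while 1431630_a_at read 219 ± 28.4. For Klf6 it was 1418280_at at 312 ± 24.7, under 1433508_at at 654 ± 18.6. Among 1085 called genes with several probe sets and 1 of this kind, it was the brightest in 532 (49.0%), so such an order is common. For Klf9 and Klf12 the probe sets of this kind, 1422264_s_at and 1422227_at, were under the bound on both arrays. No other probe set of these genes was above background on both arrays, and 1436952_at of Klf9 exceeded the bound on set 1 alone. Where on the transcripts these probe sets lie was not examined.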
